A study of Danio rerio with 10 samples.

Results

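The transcripts of zebrafish embryos that had received a sox19b morpholino were set against those of controls of the same age, 4.3 h post fertilization (hpf), on 1-channel Affymetrix Zebrafish Genome Arrays. The comparison holds 6 of the 10 arrays of the series, 3 labelled morphant and 3 control. The morphant-labelled embryos were injected at the 1- to 2-cell stage by the labels, and immediately after fertilization by the series' own text. The labels call the controls wildtype, and the series' text describes them as injected with a placebo. The other 4 arrays are wild type, 2 of embryos aged 2.5 hpf and 2 of embryos aged 4 hpf. No transgene, mutant allele or strain is named in the labels, the morpholino dose is not given, and every array holds RNA of embryos that the labels do not divide into tissues. A difference in such a bulk sample can come from fewer cells of a type or from less RNA per cell, and these cannot be told apart. By the series' text each array stands for its own batch of eggs, but whether these had separate parents is not given, so p-values measure the spread between these samples only.

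Sox19b is a SoxB1 transcription factor whose transcript the egg supplies to the embryo. Early development runs on such maternal transcripts until the maternal-to-zygotic transition, when the embryo's own genome is switched on and many maternal transcripts are degraded. SoxB1 proteins act in zebrafish, together with Pou5f3 and Nanog, in opening chromatin for the first zygotic genes. The morpholino, an antisense oligonucleotide, is described in the labels as complementary to an intron-exon junction. It is shown because it defines the treatment, with capitals marking the bases opposite the CAG of its target strand.
Morpholino as given: acatttgaCTGtggagaggaaaaaa
Target strand: ttttttcctctccaCAGtcaaatgt
The target strand, which is the reverse complement, holds CAG once among its 25 bases. Of the 14 letters before this CAG, 13 are C or T, and 8 letters follow it. An AG after a run of pyrimidines is the usual form of an intron's 3′ end. No genome was used here, so the position of the site was not analysed.

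Every value below is on the deposited log2 scale, so that a difference of 1 is 2-fold. A gene is said to have risen or fallen where limma called its brightest probe set, with p adjusted by Benjamini-Hochberg across 15502 probe sets and a threshold of 0.05. Single adjusted p-values below are from limma. A group mean no higher than the brightest of 17 control probe sets without a zebrafish target, 5.10 in morphant-labelled and 5.13 in control arrays, is called background, and a fold against such a group is a lower bound taken against that value. The targeted gene itself read 9.13, 8.80 and 9.18 in the morphant-labelled arrays, against 8.48, 7.63 and 8.09 in the control arrays, a rise of 0.97 (SE 0.20, adjusted p = 0.00214). Since blocked splicing can leave transcript in place, and where the probes lie was not analysed, the knockdown is not measured by this.

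Arrays of one group were alike. Morphant-labelled arrays correlated with each other at 0.995 to 0.996, control replicates 1 and 3 at 0.996, and control replicate 2 with these at 0.990 and 0.992. Control replicate 2 lay at least 2-fold away from both other controls in 90 probe sets, in 79 of them on the side farther from the morphant-labelled mean. By comparison, 4 probe sets set control replicate 1 apart in this way and 1 set control replicate 3 apart. Among the morphant-labelled arrays 26 probe sets set replicate 2 apart and 0 the other two.

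Most markers of the egg and germ plasm rose, and most of those of the yolk syncytial layer, the enveloping layer and the blastoderm fell. Of all 8793 genes 26.1% rose and 21.7% fell, which are the shares to set beside the marker counts. Of 6 germ plasm markers 5 rose, and their mean log2 level per array was 8.99 to 9.10 in morphant-labelled and 7.55 to 7.81 in control arrays. Of 5 egg and oocyte markers 4 rose (10.07 to 10.14 against 7.76 to 8.36 in controls). All 6 measured yolk syncytial layer markers fell (4.62 to 4.99 against 7.34 to 8.15 in controls), as did 7 of 8 markers of the enveloping layer, the outer epithelium (4.54 to 4.91 against 7.46 to 7.81 in controls), among them cldne at background in both groups. Of 4 blastoderm markers 3 fell (9.76 to 10.21 against 11.17 to 11.36 in controls), of which pou5f3 (-0.55) was not called with equal Bacillus control probe sets (-0.31, adjusted p = 0.0519). Of 8 markers of late differentiated tissues limma called 0 in either direction, with 2 at an unadjusted p below 0.05, and 5 of them, mylpfa, ckma, elavl3, gfap and tnnt2a, were at background in both groups. Another of the 8, mpx, was called in the paired fit, with a difference of -0.35 (adjusted p = 0.0221). The part of the number of cells of each layer in the results below was not tested.

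Over 8793 genes, 945 were called at least 2-fold higher (10.7% of all genes) and 596 at least 2-fold lower (6.78%) in morphant-labelled embryos. Without the 2-fold limit 4196 genes were called (47.7%), of which 2291 rose (26.1%) and 1905 fell (21.7%), with a median difference of -0.02 over all genes. The falls were larger in size: 75 genes were lower by 3 or more on the log2 scale, and 13 were higher by as much. Over single probe sets 42.5% were called, and 8.57% were at least 2-fold higher. The 3 morphant-labelled values all lay above the 3 control values in 29.7% of genes and all below them in 27.5%. Of the genes at least 2-fold higher, 188 were at background in control arrays only and 36 in both groups. Of those at least 2-fold lower, 183 were at background in morphant-labelled arrays only and 68 in both groups. The genes that were at least 2-fold higher had median levels of 7.90, 7.83 and 7.85 in the morphant-labelled arrays, against 6.38, 6.03 and 6.23 in the controls. Those at least 2-fold lower had medians of 5.49, 5.59 and 5.41 in the morphant-labelled arrays, against 7.44, 7.78 and 7.50 in the controls. Control replicate 2 was thus farthest from the morphant-labelled arrays on both sides.

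**Figure D1:**
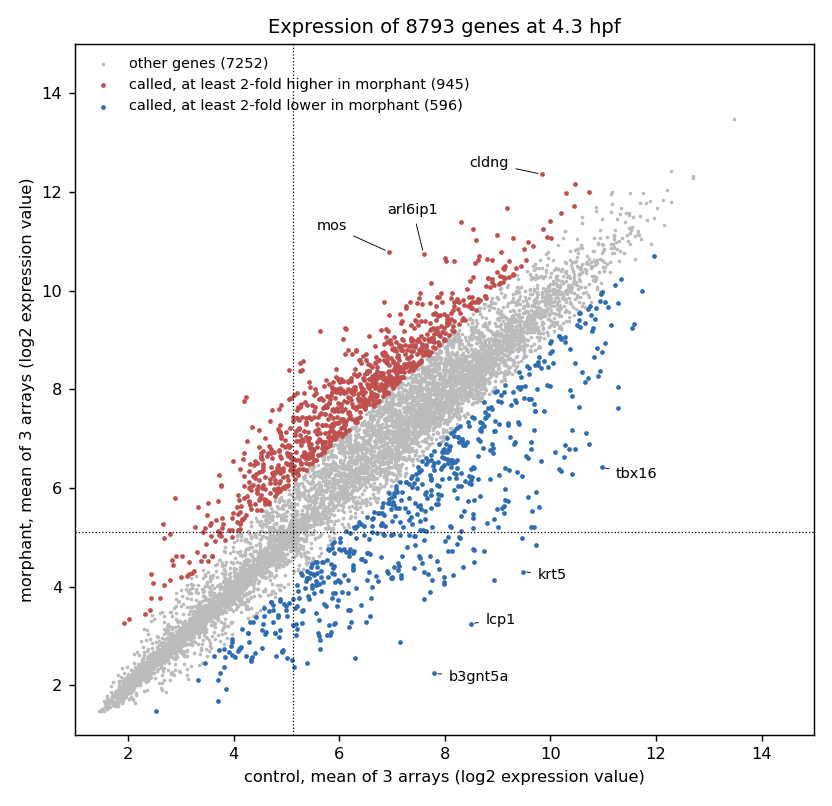
Mean log2 expression value of each of 8793 genes over 3 morphant-labelled arrays (vertical axis) against that over 3 control arrays (horizontal axis), with genes called at least 2-fold higher in red (945), at least 2-fold lower in blue (596) and all others in grey. Dotted lines mark background, and the blue points reach farther from the diagonal than the red ones.

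Genes of the egg were among those with the largest rises. Mos, btg4 and org are also egg markers counted above, and tdrd6a, dazl and ddx4 germ plasm markers. Mos, a kinase that acts through MAP kinase in oocyte maturation and egg arrest, read 10.83, 10.73 and 10.80 in the morphant-labelled arrays, against 7.19, 6.56 and 7.06 in the control arrays. Btg4, which in mouse recruits a deadenylase to maternal transcripts, read 11.41, 11.55 and 11.21 in morphant-labelled embryos and 8.97, 7.42 and 8.56 in controls. Slbp2, named for the stem-loop protein that binds histone mRNA in oocytes of Xenopus, read 11.38, 11.33 and 11.03 in morphant-labelled embryos and 8.99, 8.04 and 8.60 in controls. The groups did not overlap for any of the 3, and control replicate 2 had the lowest value each time. The folds were 14.5-fold for mos, 8.44-fold for btg4 and 6.52-fold for slbp2 (adjusted p = 8.09e-08 for mos, adjusted p = 1.97e-05 for btg4 and adjusted p = 2.91e-06 for slbp2). Buc, which organises the Balbiani body and germ plasm, was 6.28-fold higher, and org, an oogenesis-related gene, 5.62-fold higher. Tbpl2, the vertebrate TATA-binding protein paralogue used in oocytes, was at least 6.48-fold higher (adjusted p = 4.71e-06). Tdrd6a, a Tudor protein of germ granules, was 5.13-fold higher, and dazl, a germ cell RNA-binding protein, 5.26-fold higher. Ddx4, the germ cell helicase Vasa, stood apart from these with 8.33, 8.09 and 8.31 in the morphant-labelled arrays, against 8.61, 8.64 and 8.29 in the control arrays. Its groups overlapped, and it was not called (adjusted p = 0.124), though without control replicate 3 it was called, with a difference of -0.38 (adjusted p = 0.0433).

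**Figure D2:**
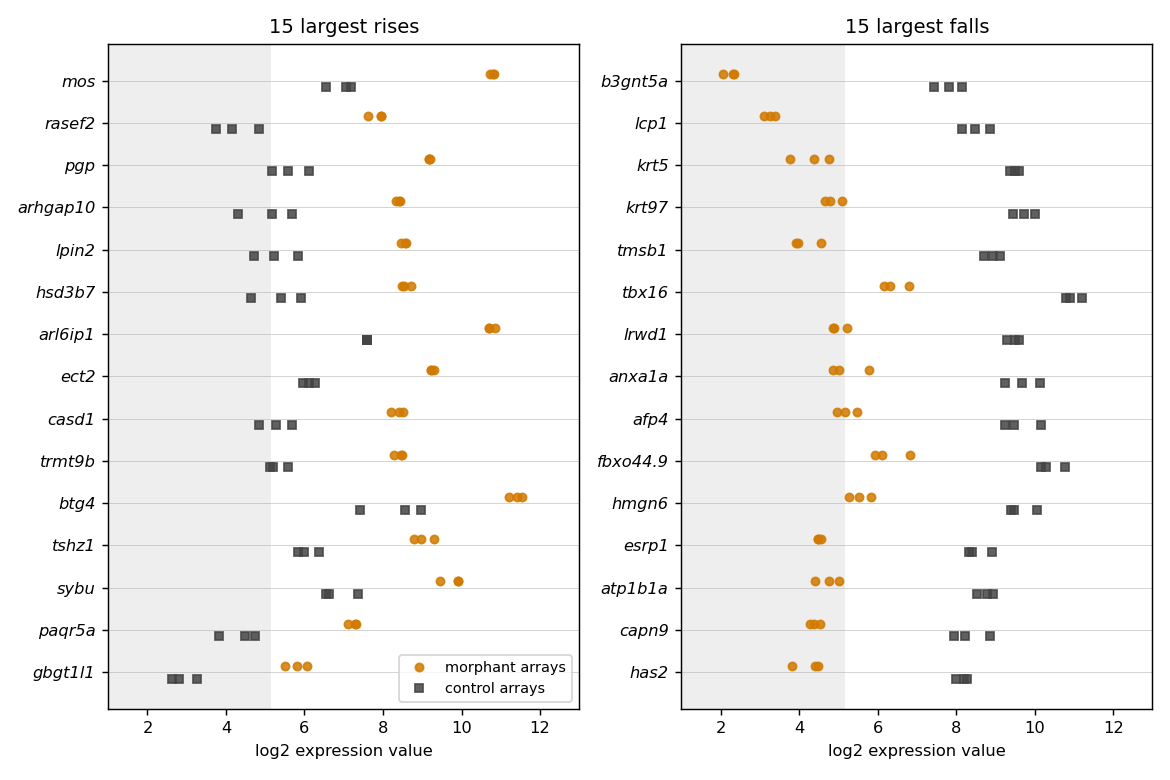
Log2 expression value of the 15 genes with the largest rises (left) and the 15 with the largest falls (right) on each array, with morphant-labelled arrays as circles above control arrays as squares. The shaded range is background in controls, and the groups of these 30 genes do not overlap.

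Genes of mRNA decay were called at shares near those of all genes. Of 86 measured genes of mRNA decay and translational control, 10 were at least 2-fold higher (11.6%) and 8 at least 2-fold lower (9.3%), beside 10.7% and 6.78% of all genes. Besides btg4, the rises included zar1l, a relative of the oocyte factor Zar1 (4.41-fold), the decapping-associated lsm1 (3.98-fold), the deadenylase cnot7 (at least 2.17-fold) and the AU-rich element binding zfp36l2 (3.18-fold). Zar1 itself read 7.71, 7.84 and 7.88 in morphant-labelled embryos and 8.04, 7.87 and 8.14 in controls and was not called (adjusted p = 0.178). The falls included the exosome subunits exosc5 (3.35-fold) and exosc7 (2.33-fold), the decapping factor edc3 (at least 2.13-fold) and btg1 (2.98-fold). Under a shift of the arrays to equal Bacillus control probe sets, which moved the median of all genes from -0.02 to 0.23, the list held 18 genes higher and 5 lower. Where the shift turns round which of a list's printed counts is the larger, its counts under it are given too.

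RNA-binding genes fell far more often than they rose. Of 103 RNA-binding and hnRNP genes, 7 rose (6.8%) and 63 fell (61.2%), beside 26.1% and 21.7% of all genes, with a median difference of -0.43 beside -0.02 over all genes; 19 were at least 2-fold lower (18.4%, beside 6.78% of all genes) and 1 at least 2-fold higher. Esrp1, a splicing regulator of epithelial cells, read 4.57, 4.47 and 4.48 in the morphant-labelled arrays, against 8.34, 8.91 and 8.40 in the control arrays. Ptbp1a, the polypyrimidine tract-binding protein, read 6.64, 6.57 and 6.76 in morphant-labelled embryos and 9.40, 9.67 and 9.54 in controls. Hnrnpa0a read 7.01, 7.15 and 6.64 in morphant-labelled embryos and 9.55, 9.80 and 9.55 in controls. The groups of each lay far apart, with esrp1 at background in every morphant-labelled array, at least 10.9-fold lower (adjusted p = 6.01e-08), while ptbp1a was 7.37-fold lower and hnrnpa0a 6.5-fold lower. Hnrnpul1 (3.67-fold) and ewsr1a, the homologue of the Ewing sarcoma gene (3.46-fold), were lower too. The 1 gene that was at least 2-fold higher was larp6b (2.26-fold), and without control replicate 2 the list held 0 such genes. Among 37 RNA helicases, 3 were at least 2-fold higher (8.11%) and 5 at least 2-fold lower (13.51%), beside 10.7% and 6.78% of all genes. Ddx17 (2.37-fold) and ddx5 (2.14-fold) were lower and the mitochondrial ddx28 (2.11-fold) higher. With equal Bacillus controls 5 of the helicases were higher and 2 lower.

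Among nuclear transport genes and translation factors the order of rises and falls turned with the scaling. Of 47 genes of nuclear pores and transport, 8 rose (17%) and 22 fell (46.8%), beside 26.1% and 21.7% of all genes. Of these, 6 of the rises and 2 of the falls were at least 2-fold (12.8% and 4.3% of the list, beside 10.7% and 6.78% of all genes). With equal Bacillus controls 14 rose and 13 fell. Kpna7, the importin alpha that oocytes use in mammals, read 9.74, 9.70 and 9.73 in the morphant-labelled arrays, against 7.79, 7.14 and 7.77 in the control arrays. Kpna3, another importin alpha, read 5.59, 5.58 and 5.81 in morphant-labelled embryos and 6.74, 7.37 and 6.99 in controls. The groups did not overlap in either gene: kpna7 was 4.45-fold higher and kpna3 2.59-fold lower. The exporter of importin alpha, cse1l (2.84-fold), and the mRNA export factor nxf1a (at least 2.98-fold) were higher, and the pore component nup37 (2.35-fold) was lower. Of 71 translation factors, 11 rose (15.5%) and 24 fell (33.8%), with 3 and 3 at least 2-fold (4.2% each). With equal Bacillus controls 18 rose and 11 fell. Eif4a2, an initiation helicase, was at least 4.27-fold lower, and the elongation factor gene eef2a.1 at least 2.14-fold lower. The initiation inhibitor eif4ebp2 was 2.35-fold higher and the eIF2 kinase eif2ak3 4.55-fold higher.

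Cell division genes of the spindle rose more often than they fell. Of 67 spindle, kinetochore and centrosome genes, 34 rose (50.7%) and 9 fell (13.4%), beside 26.1% and 21.7% of all genes, with a median difference of 0.43, and 12 were at least 2-fold higher (17.9%) and 2 at least 2-fold lower (2.99%), beside 10.7% and 6.78% of all genes. Ect2, an exchange factor that acts at the cleavage furrow, read 9.22, 9.22 and 9.30 in the morphant-labelled arrays, against 6.26, 5.95 and 6.11 in the control arrays. Kif20a, a kinesin of the central spindle, read 10.94, 11.20 and 10.96 in morphant-labelled embryos and 8.61, 8.54 and 8.63 in controls. Both were higher in every morphant-labelled array than in any control, by 3.14 (SE 0.11, adjusted p = 5.78e-08) for ect2 and 2.44 (SE 0.11, adjusted p = 1.62e-07) for kif20a. Birc5b, a survivin of the chromosomal passenger complex, was 5.37-fold higher, sgo2, which protects centromeric cohesion, 4.25-fold higher, stil, needed for centriole duplication, 4.37-fold higher, and the checkpoint gene zw10 3.33-fold higher. The spindle protein gene ckap2l was 5.4-fold lower and the kinetochore gene cenps at least 2.13-fold lower. Among 63 DNA repair genes 10 were at least 2-fold higher (15.9%) and 2 at least 2-fold lower (3.17%). The endonuclease gene apex2 (at least 4.26-fold) and the recombination gene rad51c (4.14-fold) were higher, and the single-strand binding subunit rpa2 (2.88-fold) was lower.

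Kif23, which forms centralspindlin at the midzone, gave opposite readings. The first probe set had values of 9.39, 9.18 and 9.56 in the morphant-labelled arrays, against 8.42, 7.97 and 8.32 in the controls. The other had values of 8.85, 9.06 and 8.92 in the morphant-labelled arrays, against 9.89, 10.14 and 9.95 in the controls. The differences were 1.14 and -1.06 (adjusted p = 0.000102 and 2.94e-05), so that no direction is given for kif23. It was singled out after its values were seen. Together with the claudin gene cldng it was 1 of 2 genes, among 1539 with several probe sets, with calls of at least 2-fold both ways. By its brightest probe set it is counted among the lower microtubule genes.

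Microtubule genes went both ways. Of 70 kinesin, dynein and tubulin genes, 14 were at least 2-fold higher (20%) and 8 at least 2-fold lower (11.4%), beside 10.7% and 6.78% of all genes. Dync1li1, a dynein light intermediate chain, was at least 2.38-fold higher, kif3a, a kinesin-2 motor, 3.93-fold higher, and the severing enzyme gene katnal1 4.1-fold higher. The dynein light chains dynll1 and dynlrb1 were lower: dynll1 read 9.06, 9.41 and 9.27 in morphant-labelled embryos and 11.39, 11.65 and 11.57 in controls, a difference of -2.29 (SE 0.12, adjusted p = 3.37e-07), and dynlrb1 differed by -1.16 (SE 0.10, adjusted p = 7.61e-06). The tubulins tuba5 (4.28-fold) and tubb5 (2.21-fold) were lower as well.

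Actin genes held some of the largest falls of all. Tmsb1, a thymosin that binds actin monomers, read 3.91, 3.98 and 4.55 in the morphant-labelled arrays, against 8.71, 9.13 and 8.93 in the control arrays. Lcp1, the actin bundler L-plastin, read 3.26, 3.40 and 3.11 in morphant-labelled embryos and 8.14, 8.87 and 8.48 in controls. Marcksa, a membrane-bound actin regulator, read 5.65, 5.63 and 5.65 in morphant-labelled embryos and 8.96, 9.14 and 9.27 in controls. Tmsb1 and lcp1 were at background in every morphant-labelled array and at least 14.2-fold and at least 10.5-fold lower, and marcksa, above background in both groups, was 11.1-fold lower (adjusted p = 6.01e-08, adjusted p = 4.13e-08 and adjusted p = 4.13e-08). Tagln2 was 7.49-fold lower. In the opposite direction tmsb5, another thymosin, was 4.02-fold higher, and the actin-binding genes lasp1 and svila were 3.82-fold and 3.8-fold higher. Of 129 actin and myosin genes 6 were at least 2-fold higher (4.65%) and 10 at least 2-fold lower (7.75%), beside 10.7% and 6.78% of all genes, or 11 higher and 9 lower with equal Bacillus controls.

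Desmosome and tight junction genes were among the large falls. Cldn8.2, a claudin of tight junctions, read 3.50, 3.95 and 3.79 in the morphant-labelled arrays, against 7.41, 8.03 and 7.36 in the control arrays. Perp, a desmosome protein, read 4.49, 4.84 and 4.92 in morphant-labelled embryos and 8.35, 8.95 and 8.38 in controls. Ppl, which encodes the desmosomal plakin periplakin, read 4.88, 4.95 and 4.73 in morphant-labelled embryos and 7.09, 7.73 and 7.50 in controls. All 3 were at background in morphant-labelled arrays by their means and clear of it in controls, at least 5.65-fold, at least 11-fold and at least 5.06-fold lower. Pkp3a, a plakophilin of desmosomes, was at least 1.43-fold lower, and cldn23.1 8.91-fold lower. Of 117 junction genes 9 were at least 2-fold higher (7.69%) and 16 at least 2-fold lower (13.7%), beside 10.7% and 6.78% of all genes, and with equal Bacillus controls 15 were higher and 12 lower. Cldng stands among the higher ones in these counts by its brightest probe set, although its other 3 probe sets fell. Higher were the polarity gene pard6gb (2.8-fold), the tetraspanin cd151l (2.93-fold) and dlg5a (at least 2.1-fold). Atp1b1a, a beta subunit of the sodium pump, was at least 12.5-fold lower, and has2, which makes hyaluronan, at least 8.32-fold lower. The 25 annexin and S100 genes measured included 4 at least 2-fold lower (16%). Without control replicate 2 the lower ones numbered 2. The falls of this group went with those of the enveloping layer markers given above, and the part of that layer in them was not tested.

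In some families of transcription factors more genes were lower than higher at 2-fold, also with equal Bacillus controls. Under that scaling 4 forkhead genes were lower and 2 higher, 6 and 4 Sox and T-box genes, and 14 and 7 ETS, GATA and related genes. The basic helix-loop-helix genes, described below, held 9 lower and 7 higher under it. On the values as deposited, of 24 forkhead genes 1 was at least 2-fold higher (4.17%) and 6 at least 2-fold lower (25%), beside 10.7% and 6.78% of all genes. Foxd5, a factor of the early neural plate, read 5.42, 5.93 and 5.47 in the morphant-labelled arrays, against 8.81, 9.44 and 8.98 in the control arrays, 11.1-fold lower (adjusted p = 2.86e-07). Foxp1a went the other way at 8.29, 8.02 and 7.86 in morphant-labelled embryos and 6.18, 5.59 and 5.82 in controls, 4.58-fold higher. Foxh1, the Nodal signal partner, was 2.33-fold lower, and foxb1a 2.61-fold lower. Of 36 Sox and T-box genes 1 was at least 2-fold higher (2.78%) and 7 at least 2-fold lower (19.4%), with the endoderm gene sox32 6.37-fold lower, the notochord and mesoderm gene tbxta 5.13-fold lower and sox9b 2.03-fold higher. Without control replicate 2 the list held 6 genes lower by as much, and sox9b under 2-fold. Of 63 ETS, GATA, Krüppel-like and related zinc finger genes 4 were at least 2-fold higher (6.35%) and 15 at least 2-fold lower (23.8%). Snai2, a repressor of the Snail family, read 5.56, 6.18 and 5.48 in morphant-labelled embryos and 9.21, 9.29 and 9.08 in controls, a difference of -3.45 (SE 0.17, adjusted p = 2.15e-07), and klf11a read 8.31, 8.10 and 8.20 in morphant-labelled embryos and 5.98, 6.03 and 6.07 in controls, a difference of 2.18 (SE 0.10, adjusted p = 2.09e-07).

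The basic helix-loop-helix family, a group that includes the Myc factors, had changes both ways, with more genes lower than higher at 2-fold. Of 82 basic helix-loop-helix genes 4 were at least 2-fold higher (4.88%) and 9 at least 2-fold lower (11%), beside 10.7% and 6.78% of all genes. Here 2 Myc genes went opposite ways: mycn read 3.78, 4.73 and 4.27 in the morphant-labelled arrays, against 7.66, 7.77 and 7.65 in the control arrays, at least 6.02-fold lower, whereas myclb read 8.70, 8.54 and 8.90 in morphant-labelled embryos and 6.54, 5.80 and 6.37 in controls, 5.57-fold higher. The Hairy-related her5 was 6.48-fold lower and hes6 4.8-fold lower. Of 175 homeobox genes 136 were at background in both groups, and 8 were at least 2-fold higher (4.57%) and 10 at least 2-fold lower (5.71%). The ventral repressors ved (12.3-fold) and vent (at least 3.04-fold) were lower, and otx1 (3.76-fold), tshz1 (7.75-fold) and dlx6a (3.56-fold) higher, and with equal Bacillus controls 11 were higher and 9 lower. Of 44 immediate early and bZIP genes 7 were at least 2-fold higher (15.9%) and 9 at least 2-fold lower (20.5%) (8 higher and 7 lower with equal Bacillus controls). The CCAAT-binding cebpa and cebpb were at least 3.1-fold and 3.7-fold lower, and atf4a, a factor of the amino acid response, 2.87-fold lower. Its relative atf5a was at least 4.14-fold higher, and creb3l3l and creb3l2, membrane-bound factors of the Creb3 family, were 6.74-fold and 3.74-fold higher. Among nuclear receptors nr0b2a was at least 6.32-fold lower; without control replicate 2 the log2 difference was -3.02 in place of -3.63. The glucocorticoid receptor gene nr3c1 was at least 3-fold higher and the thyroid hormone receptor gene thraa 2.93-fold higher.

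Signalling lists outside the BMP and Nodal pathways with more falls than rises included planar polarity and Notch genes. Of 53 planar polarity and non-canonical Wnt genes 1 was at least 2-fold higher (1.89%) and 10 at least 2-fold lower (18.9%), beside 10.7% and 6.78% of all genes, with 6 lower without control replicate 2 and 5 lower and 2 higher with equal Bacillus controls. Without the 2-fold limit 11 rose and 21 fell, or 18 and 15 with equal Bacillus controls. The Wnt co-receptor glypican gpc4, known for its role in convergent extension, read 6.68, 6.73 and 6.35 in the morphant-labelled arrays, against 7.84, 8.15 and 8.14 in the control arrays. Fzd8a, a Wnt receptor, read 6.11, 6.29 and 6.17 in morphant-labelled embryos and 7.55, 7.58 and 7.31 in controls, and the other receptor gene fzd5 read 6.39, 6.45 and 6.85 in morphant-labelled embryos and 5.38, 4.95 and 5.39 in controls. The groups lay apart in all 3 genes, with differences of -1.46 (SE 0.14, adjusted p = 1.14e-05) for gpc4, -1.29 (SE 0.12, adjusted p = 8.07e-06) for fzd8a and 1.32 (SE 0.16, adjusted p = 6.78e-05) for fzd5. Fzd8b, the other fzd8 copy, was called higher by 0.71 (adjusted p = 0.00318). The receptor genes fzd7a and fzd7b differed by -2.19 and -1.08, both called. Prickle1b, a cytoplasmic planar polarity protein, was at least 2.73-fold lower, and the Wnt inhibitor sfrp1a 3.32-fold lower. Dusp6 and spry4, both inhibitors of FGF signalling, were 3.83-fold and 2.15-fold lower. Hedgehog's receptor partner smo was 2.27-fold lower and the Hedgehog-binding hhip at least 2.15-fold higher, while the Hippo kinase gene lats1 and its partner mob1a were 2.43-fold and 2.61-fold higher. Of 27 Notch pathway genes 3 rose (11.1%) and 11 fell (40.7%), beside 26.1% and 21.7% of all genes. At 2-fold, 0 of them were higher and 2 lower (7.41%), with Notch-regulated nrarpa 2.75-fold lower. The receptor insra was 3.31-fold higher, and the growth factor igf2a at least 1.62-fold lower. Of the immune signalling genes ptgs2a and alox5b.3, of prostaglandin and leukotriene synthesis, were at least 1.22-fold and at least 5.51-fold lower. The NF-kB subunit gene nfkb2 was 4.6-fold higher and the inhibitor nfkbiaa 2.4-fold lower.

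Lysosome and vesicle genes rose more often than they fell. Of 46 lysosome and vacuolar ATPase genes, 24 rose (52.2%) and 6 fell (13%), beside 26.1% and 21.7% of all genes, with a median of 0.38, and 12 were at least 2-fold higher (26.1%) and 1 at least 2-fold lower (2.17%), beside 10.7% and 6.78% of all genes. Atp6v0d1, a subunit of the proton pump's membrane part, read 8.80, 8.86 and 8.76 in the morphant-labelled arrays, against 6.50, 6.15 and 6.29 in the control arrays. Atp6v1h, of its cytoplasmic part, read 7.77, 7.81 and 7.79 in morphant-labelled embryos and 6.35, 6.06 and 6.28 in controls. The groups did not overlap, with differences of 2.49 (SE 0.12, adjusted p = 1.99e-07) and 1.56 (SE 0.11, adjusted p = 1.71e-06). Both genes atp6v1c1a and atp6v1c1b rose, by 1.26 and 1.38. The lysosomal channel gene mcoln2 was 3.8-fold higher and the chloride exchanger gene clcn7 3.5-fold higher. The 1 gene that was at least 2-fold lower was ctsll, a cathepsin, at 5.21, 5.96 and 5.34 in the morphant-labelled arrays, against 8.70, 9.61 and 9.06 in the control arrays, 12.3-fold lower. Of 221 Golgi, endosome and vesicle fusion genes, 92 rose (41.6%) and 26 fell (11.8%), and 30 were at least 2-fold higher (13.6%) and 2 at least 2-fold lower (0.905%). Among the rises were snx10a, a sorting nexin (5.4-fold), the syntaxin-binding stxbp2 (5.22-fold), trappc5 of the TRAPP tethering complex (4.98-fold), vps9d1 (4.58-fold) and arfip2a (4.54-fold). The ESCRT gene vps36 was 2.35-fold lower.

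Autophagy and TOR genes rose more often than they fell, while nutrient-sensing genes among them moved both ways. Of 46 autophagy and TOR genes, 20 rose (43.5%) and 7 fell (15.2%), beside 26.1% and 21.7% of all genes, with a median difference of 0.05. At 2-fold, 9 were higher (19.6%) and 3 lower (6.52%), beside 10.7% and 6.78% of all genes. Rragca, a Rag GTPase, read 8.88, 8.89 and 9.11 in the morphant-labelled arrays, against 7.37, 6.65 and 7.21 in the control arrays, and flcn, which acts on the Rag GTPases, read 7.02, 6.96 and 6.90 in morphant-labelled embryos and 5.80, 4.48 and 5.28 in controls. Sesn3, a sestrin, read 5.14, 5.12 and 5.60 in morphant-labelled embryos and 8.53, 9.27 and 8.59 in controls, and lamtor2, of the Ragulator, 5.78, 5.77 and 5.28 in morphant-labelled embryos and 6.79, 7.03 and 6.63 in controls. Rragca was 3.69-fold higher and flcn 3.43-fold higher, against sesn3 11.4-fold lower and lamtor2 2.3-fold lower. Map1lc3c and map1lc3b, both LC3 proteins of autophagosomes, were likewise split, 3.24-fold higher and 2.61-fold lower.

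In the endoplasmic reticulum, 126 genes of translocation, folding and coats held 12 that were at least 2-fold higher (9.52%) and 4 lower (3.17%), both shares under those of all genes. Arl6ip1, which shapes tubules of the reticulum, read 10.69, 10.85 and 10.71 in the morphant-labelled arrays, against 7.60, 7.60 and 7.60 in the control arrays, 8.87-fold higher. Sec23b of the COPII coat was 4.06-fold higher, herpud1, of protein degradation from the reticulum, 3.04-fold higher, and atl3, which fuses its tubules, 3.06-fold higher. The chaperone gene hsp90b1 was 2.61-fold lower and the membrane insertase subunit emc2 2.3-fold lower.

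Ubiquitin ligases rose by 2-fold or more at a higher share than all genes. Of 188 E2 and E3 genes 38 were at least 2-fold higher (20.2%) and 10 at least 2-fold lower (5.32%), beside 10.7% and 6.78% of all genes. Without the 2-fold limit 65 of these rose (34.6%) and 51 fell (27.1%), both above the 26.1% and 21.7% of all genes. The list's median was 0.00. Marchf7, a membrane-associated ligase, was 5.53-fold higher, klhl11, a Cullin-3 adaptor, 4.68-fold higher, and dtx3, a ligase of the Deltex family, 4.64-fold higher. Both Cullin-5 genes rose, cul5a by 2.12 and cul5b by 2.15. Fbxo44.9, named as an F-box gene, read 6.10, 6.81 and 5.94 in the morphant-labelled arrays, against 10.28, 10.77 and 10.16 in the control arrays, 17.4-fold lower (adjusted p = 3.51e-07). Rnf10 was 4-fold lower and anapc10, of the anaphase-promoting complex, 4.47-fold lower. Of 71 deubiquitinase, SUMO and NEDD8 genes 10 were at least 2-fold higher (14.1%) and 0 at least 2-fold lower. By limma without the 2-fold limit 24 rose (33.8%) and 11 fell (15.5%), beside 26.1% and 21.7% of all genes, and at an unadjusted p below 0.05 0 were lower by 2-fold. The SUMO protease senp2 (5.09-fold), usp20 (at least 2.99-fold), josd2 (3.32-fold) and usp33 (3.03-fold) were among the rises.

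**Figure D3:**
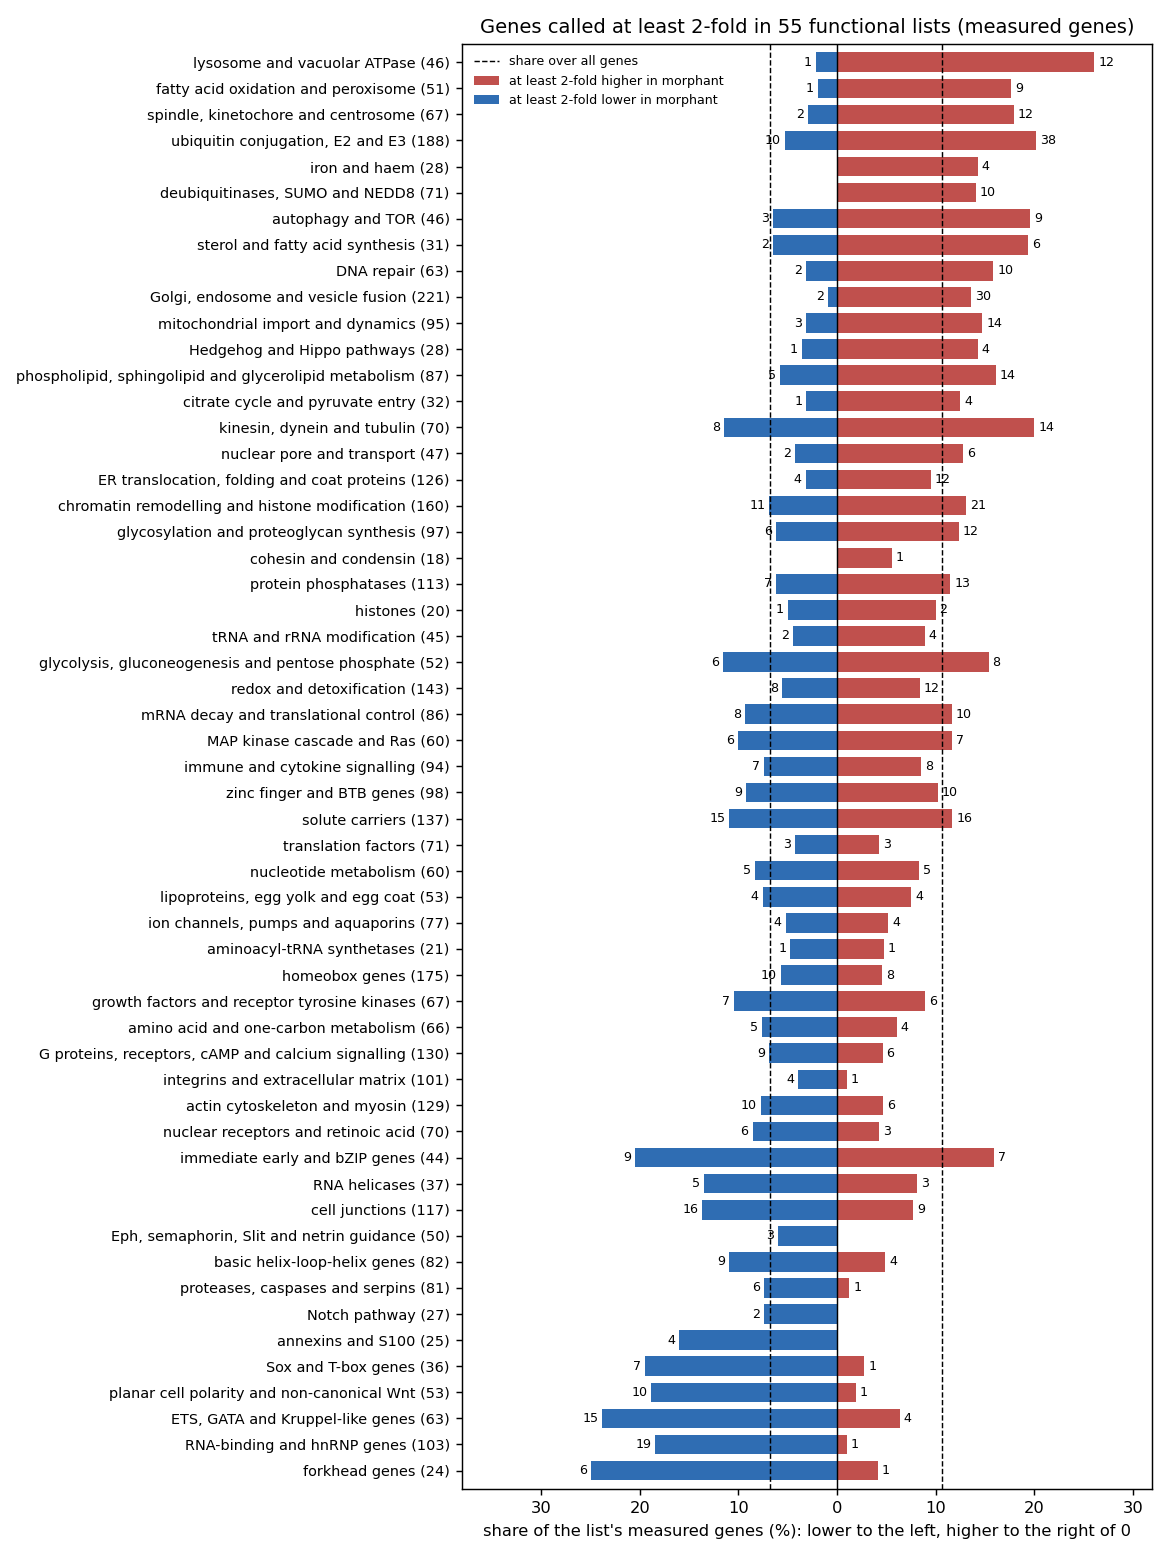
Share of measured genes called at least 2-fold higher (red, to the right) or at least 2-fold lower (blue, to the left) in morphant-labelled embryos in each of 55 lists, with the number of such genes at each bar and the list's measured genes in brackets. Dashed lines mark the shares over all 8793 genes (10.7% and 6.78%), and lists run from lysosome genes at the top to forkhead genes at the bottom.

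Lipid genes rose more often than they fell among enzymes of phospholipids, sphingolipids and glycerolipids and in fatty acid oxidation, and some apolipoprotein genes fell. Lpin2, a phosphatidate phosphatase, read 8.58, 8.45 and 8.56 in the morphant-labelled arrays, against 5.83, 4.70 and 5.22 in the control arrays, 9.7-fold higher. Chkb, a choline kinase, was at least 1.89-fold higher, and pik3c3, the class III phosphoinositide kinase, 3.88-fold higher. Degs1, which makes ceramide, read 4.82, 4.93 and 4.43 in morphant-labelled embryos and 7.87, 8.38 and 8.17 in controls, at least 8.21-fold lower, and the acyltransferase genes gpat4 and agpat2 were 3.07-fold and at least 1.15-fold lower. In all, 87 genes of phospholipids, sphingolipids and glycerolipids held 14 higher (16.1%) and 5 lower (5.75%) by at least 2-fold. Without that limit 34 of the 87 rose (39.1%) and 13 fell (14.9%), beside 26.1% and 21.7% of all genes. Of 51 fatty acid oxidation and peroxisome genes 9 were at least 2-fold higher (17.6%) and 1 at least 2-fold lower (1.96%), beside 10.7% and 6.78% of all genes, with the peroxisomal transporter abcd3a (4.03-fold), the peroxisome assembly gene pex3 (3.04-fold) and the mitochondrial hadhab (2.85-fold) higher. The cholesterol synthesis genes hmgcs1, mvk and nsdhl were 3.16-fold, at least 1.55-fold and 2.83-fold higher, and hsd3b7, of bile acid synthesis, 9.58-fold higher. Of 53 lipoprotein, egg yolk and egg coat genes 16 rose (30.2%) and 7 fell (13.2%), beside 26.1% and 21.7% of all genes. By at least 2-fold 4 were higher and 4 lower (7.55% each). Among the falls apoc1 read 4.84, 5.82 and 4.99 in the morphant-labelled arrays, against 8.42, 9.77 and 8.83 in the control arrays, 13.8-fold lower (adjusted p = 6.58e-06). Apoc2 was at least 2.78-fold lower, apoeb, which is also 1 of the blastoderm markers above, 4.28-fold lower and mttp, which loads lipoproteins, at least 1.47-fold lower. Apoea was at background in both groups and not called (adjusted p = 0.468). The falls of apoc1, apoc2 and mttp went with those of the yolk syncytial layer markers. That layer is known to secrete lipoproteins, and its part in these falls was not tested. The lipoprotein receptor vldlr was 2.65-fold higher and the lipase gene lipg 5.33-fold higher.

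Sugar metabolism genes moved both ways, also within glycolysis. Of 52 genes of glycolysis, gluconeogenesis and the pentose phosphate pathway, 8 were at least 2-fold higher (15.4%) and 6 at least 2-fold lower (11.5%). Over all genes these shares were 10.7% and 6.78%. Pgk1, phosphoglycerate kinase, read 9.81, 9.96 and 9.81 in the morphant-labelled arrays, against 8.55, 7.58 and 8.22 in the control arrays, and hk2, a hexokinase, was 2.95-fold higher. Gpia, glucose-6-phosphate isomerase, read 7.55, 7.75 and 7.59 in morphant-labelled embryos and 8.83, 8.80 and 8.80 in controls, and tpi1a, triosephosphate isomerase, was 2.32-fold lower. Hk2 and gpia encode enzymes of consecutive steps and were called in opposite directions. Pgk1 differed by 1.74 (SE 0.21, adjusted p = 5.58e-05) and gpia by -1.18 (SE 0.10, adjusted p = 6.94e-06). Of the other copies, gpib was at background in both groups and tpi1b above it. Limma called neither, with differences of -0.004 and -0.003. Fbp1b, of gluconeogenesis, was at least 6.91-fold lower, pygmb, a glycogen phosphorylase, at least 3.7-fold lower, and pfkfb4b, which sets fructose 2,6-bisphosphate, 3.33-fold lower. Pgp, phosphoglycolate phosphatase, was 11.7-fold higher, among the largest rises of all. In the citrate cycle list got2a (4.69-fold), idh1 (2.87-fold) and mdh1ab (2.35-fold) were higher. Dldh, the shared dehydrogenase subunit, read 3.75, 4.37 and 4.31 in morphant-labelled embryos and 5.21, 7.58 and 5.71 in controls, at least 2.1-fold lower; control replicate 2 stood high, and without it the log2 difference was -1.32 in place of -2.03. With a trended, robust prior dldh was not called (adjusted p = 0.0815).

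Of 137 solute carriers 16 were at least 2-fold higher (11.7%) and 15 at least 2-fold lower (10.9%), beside 10.7% and 6.78% of all genes, so that the higher share was near that of all genes. Slc3a2b, the heavy chain of amino acid exchangers, read 6.62, 6.77 and 6.41 in the morphant-labelled arrays, against 9.22, 9.99 and 9.55 in the control arrays, and slc7a8a, a light chain that pairs with it, read 5.32, 5.44 and 5.40 in morphant-labelled embryos and 8.31, 9.09 and 8.24 in controls. Each was lower in every morphant-labelled array than in any control, 7.92-fold for slc3a2b and 8.93-fold for slc7a8a. The mitochondrial carriers slc25a38b (4.24-fold), slc25a25a (4.14-fold) and slc25a39 (3.5-fold) were higher. Of 95 genes of mitochondrial import and dynamics 14 were at least 2-fold higher (14.7%) and 3 at least 2-fold lower (3.16%), with timm21 of the inner membrane translocase at least 1.4-fold higher and tomm5 of the outer one 2.14-fold lower. Of 28 iron and haem genes 4 were at least 2-fold higher (14.3%) and 0 at least 2-fold lower. By limma without that limit 12 rose (42.9%) and 2 fell (7.14%), beside 26.1% and 21.7% of all genes, with 0 lower by 2-fold at an unadjusted p below 0.05; nfs1, the cysteine desulfurase of iron-sulfur clusters, was 3.94-fold higher, the scaffold gene iscub 2.22-fold higher and cpox, of haem synthesis, 2.76-fold higher.

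Chromatin genes went both ways. Of 160 genes, 49 rose (30.6%) and 57 fell (35.6%), beside 26.1% and 21.7% of all genes, and with equal Bacillus controls 63 rose and 31 fell. At 2-fold, 21 were at least 2-fold higher (13.1%) and 11 at least 2-fold lower (6.88%), beside 10.7% and 6.78% of all genes. Dnmt1, the maintenance DNA methyltransferase, read 10.52, 10.59 and 10.75 in the morphant-labelled arrays, against 8.77, 8.54 and 8.60 in the control arrays. Setdb1a, a histone H3 lysine 9 methyltransferase, read 9.35, 9.32 and 9.53 in morphant-labelled embryos and 7.59, 7.24 and 7.49 in controls. Hmgn6, a nucleosome-binding protein, read 5.28, 5.84 and 5.52 in morphant-labelled embryos and 9.40, 10.07 and 9.47 in controls. Dnmt1 and setdb1a were 3.96-fold and 3.9-fold higher and hmgn6 17.2-fold lower, each with its groups apart. Hmgb3a (4.91-fold) and mbd3b, of the NuRD complex (3.93-fold), were lower. Among Polycomb genes, bmi1a and bmi1b rose by 1.42 and 2.00 and phc2a and phc2b by 1.04 and 1.28, whereas cbx2 was 3.47-fold lower. The histone chaperone gene nasp was 2.7-fold higher and the linker histone gene histh1l1 2.84-fold lower.

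Many zebrafish genes exist as a pair of copies from a whole-genome duplication of teleost fishes, named with a final a and b. Pairs were taken by name, without a test of their origin. Of 590 pairs with both genes measured, 392 had neither gene called at least 2-fold, 170 had 1 only, 11 had both higher and 12 both lower. The other 5 had 1 gene higher and 1 lower: inka1, arpc5, ppp1r14a, cd82 and etv5. Over all genes, 10.7% were at least 2-fold higher and 6.78% at least 2-fold lower. Whether 5 such pairs are more or fewer than these shares alone would give was not tested. With 1 probe set for each gene, the calls of a pair do not test whether its genes differ.

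Inka1a, which encodes an inhibitor of the kinase Pak4, read 6.87, 7.03 and 6.48 in the morphant-labelled arrays, against 10.57, 10.04 and 10.45 in the control arrays, and inka1b read 9.74, 10.13 and 9.77 in morphant-labelled embryos and 8.49, 8.60 and 8.43 in controls. Inka1a was 11.8-fold lower and inka1b 2.59-fold higher (adjusted p = 2.13e-07 and adjusted p = 1.12e-05). Arpc5a, a subunit of the actin-nucleating Arp2/3 complex, read 4.17, 4.64 and 3.91 in the morphant-labelled arrays, against 6.78, 7.71 and 7.04 in the control arrays, and arpc5b read 7.90, 8.13 and 8.11 in morphant-labelled embryos and 6.50, 6.17 and 6.58 in controls. Arpc5a fell to background, at least 4.22-fold lower, whereas arpc5b was 3.1-fold higher. Ppp1r14aa, of a family that inhibits myosin phosphatase, was 3.6-fold higher and ppp1r14ab at least 1.8-fold lower. Etv5a and etv5b, ETS factors downstream of FGF signals, read 9.66, 9.64 and 9.68 in morphant-labelled embryos and 8.68, 8.25 and 8.56 in controls for etv5a and 8.09, 8.04 and 7.99 in morphant-labelled embryos and 9.36, 9.35 and 9.47 in controls for etv5b, 2.24-fold higher and 2.55-fold lower. Cd82b was 3.24-fold higher, whereas cd82a was at background in both groups and is given without a fold (adjusted p = 1.08e-05).

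**Figure D4:**
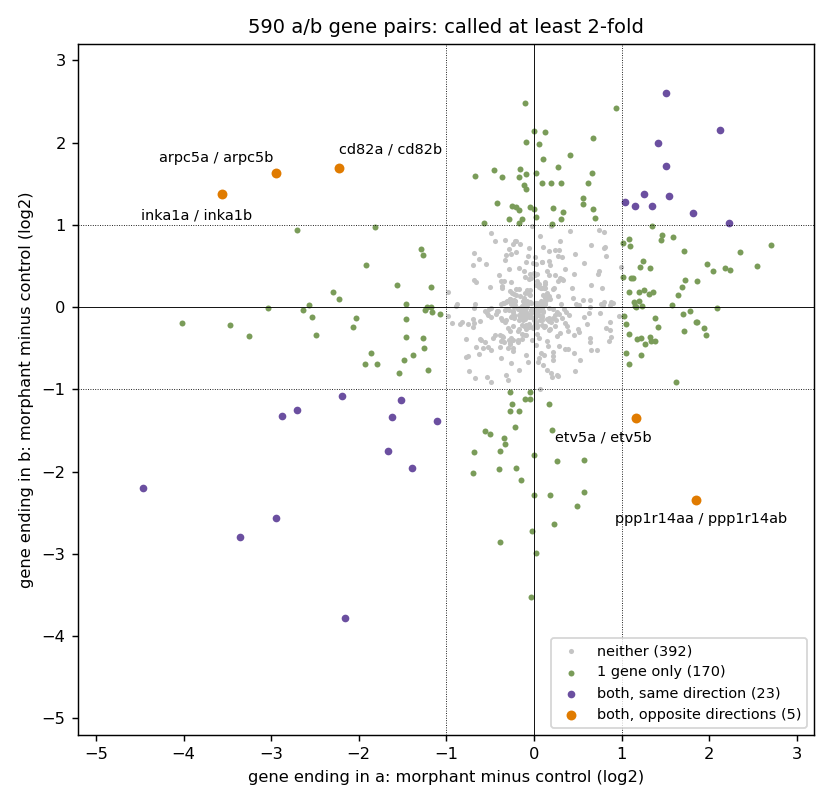
Difference between morphant-labelled and control embryos (log2) of the gene ending in b (vertical axis) against that of the gene ending in a (horizontal axis) for 590 pairs, coloured by which genes were called at least 2-fold. Dotted lines mark 2-fold, and the 5 pairs with calls in opposite directions lie in the upper left and lower right corners.

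Among pairs that moved together, cxcr4a and cxcr4b, chemokine receptors, fell by 3.35 and 2.80. Zic2a and zic2b fell by 2.15 and 3.78. Mcl1a and mcl1b, of the Bcl-2 family, rose by 1.15 and 1.23, gadd45aa and gadd45ab by 1.51 and 1.72, and fbxw11a and fbxw11b by 1.81 and 1.14. The targeted gene belongs to a pair with 1 gene called at least 2-fold: sox19a differed by -1.81 (adjusted p = 9.48e-06) beside the rise of sox19b.

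The wild type arrays at 2.5 and 4 hpf, which share no array with the comparison, show how the same genes change over the onset of zygotic transcription. Over all genes 783 were called higher at 4 hpf than at 2.5 hpf (8.90%) and 1038 lower (11.8%). Of the 945 genes at least 2-fold higher in morphant-labelled embryos, 378 were lower at 4 hpf than at 2.5 hpf (40.0%) and 27 higher (2.86%). Of the 596 at least 2-fold lower in them, 157 were higher at 4 hpf (26.3%) and 26 lower (4.36%). The remaining genes of both sets were not called over that interval. The control embryos of the comparison were slightly older than the later wild type ones. Among lists with at least 10 genes higher by 2-fold, the number of these that were lower at 4 hpf ranged from 2 of 10 deubiquitinase, SUMO and NEDD8 genes and 3 of 14 mitochondrial import genes to 10 of 14 phospholipid genes. It was 19 of 38 among E2 and E3 genes, 15 of 30 among Golgi, endosome and vesicle genes, 7 of 21 among chromatin genes and 4 of 16 among solute carriers. Among lists with at least 10 genes lower by 2-fold, the number that were higher at 4 hpf ranged from 2 of 16 junction genes and 2 of 15 solute carriers to 7 of 15 ETS, GATA and Krüppel-like genes, with 6 of 19 among RNA-binding genes. Several genes with large falls were not called over this interval, of which these 6 were chosen after their values were seen: b3gnt5a, lcp1, cldn8.2, perp, esrp1 and capn9 changed by 0.21, 0.26, 0.14, 0.15, 0.09 and 0.09 between 2.5 and 4 hpf. Background in these wild type arrays was 6.24 at 2.5 hpf and 6.33 at 4 hpf. The levels of the 6 genes against it are not given, so unchanged and undetected transcripts are not told apart here.

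**Figure D5:**
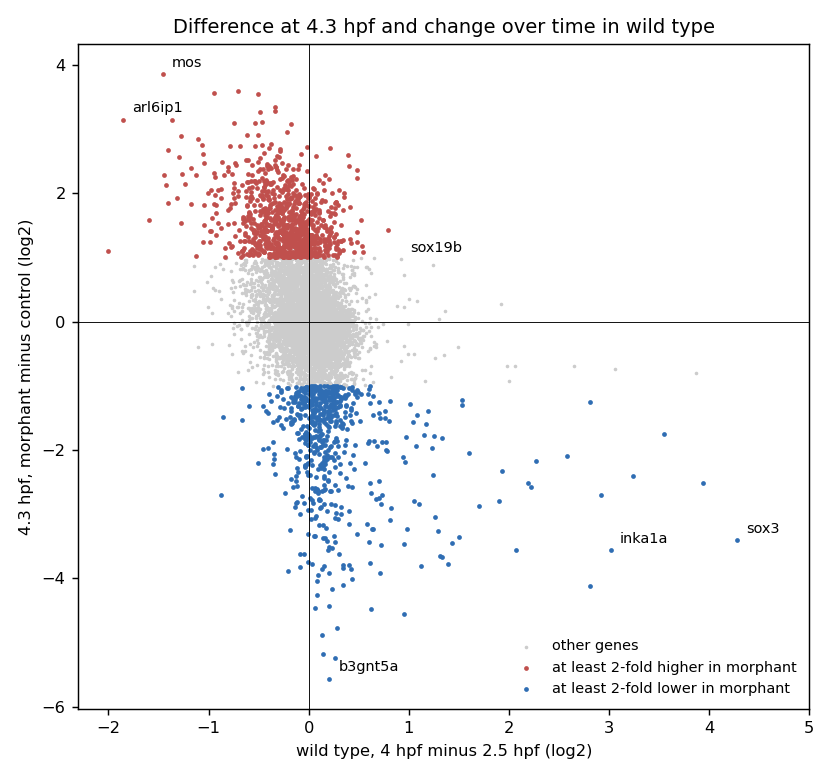
Difference between morphant-labelled and control embryos at 4.3 hpf (log2, vertical axis) against the difference between 4 hpf and 2.5 hpf in wild type (log2, horizontal axis) for 8793 genes. Genes at least 2-fold higher in morphant-labelled embryos (red) have a median of -0.21 on the horizontal axis, and those at least 2-fold lower (blue) a median of 0.14, reaching 4.28 at sox3.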

How the data were processed

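Log2 values per probe set were used as the authors deposited them. RMA and the affy package are named in the submitters' processing notes, with versions not given there. The values were not normalized again. limma 3.58.1 in R 4.3.3 was fitted to the 6 arrays with group as the only term (lmFit, eBayes), and p-values were adjusted by Benjamini-Hochberg over 15502 non-control probe sets. A call is an adjusted p below 0.05. The 2 earlier wild type groups were fitted separately. RMA intensities have no read depth, and 3 arrays a group limit the precision. Tables and plots were made with Python 3.11.15, pandas 2.3.3 and matplotlib 3.10.9.

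Of the probe sets, 10795 carried 1 gene symbol in the platform annotation, 135 several and 4572 none, and probe sets of the last 2 kinds entered the fit but were not named. Of the named ones 10711 matched RefSeq (GRCz12tu, used for names alone) and 1 was renamed. The brightest probe set stood for a gene (8793 genes). The 56 functional lists hold 4147 genes, 108 of them on several lists. The results of 1 list are not reported here. The members and lists were chosen with earlier results of these data known, and 306 entries were removed from the lists by gene identity, some after values had been seen. Genes are named that were among the 30 largest rises or falls, or were markers. Also named are the 5 largest changes of at least 2-fold each way in a list, and pairs called in opposite directions. Pairs that moved together, and other copies of named genes, were chosen after their values were seen.

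Same-numbered arrays deviated together from their group means, with correlations of 0.318, 0.202 and 0.114, so the numbers were taken as pairs in an alternative fit. The alternatives were that fit, other scalings, a trended prior, a background filter and each array left out. On simulated data for this comparison over 15502 probe sets, the fit recovered 86% of shifts of 1 and 98% of shifts of 2 on the log2 scale. It also called 6 probe sets without a shift. The simulation shifted only a small part of the probe sets and drew the noise of each array independently. In the data 42.5% of probe sets were called, so the recovery there can differ.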

Additional observations from a re-analysis of the deposited data

How the results depend on the processing

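The 6591 calls numbered 6920 with the replicate block, which moved no call count by over 1.5 times and changed the call of 1 named gene, mpx (-0.35, adjusted p = 0.0221), and 5676 to 6356 when each array was left out in turn. Shifting the arrays to equal Bacillus control probe sets gave 5631 higher and 1987 lower probe sets, in place of 3307 and 3284. It moved 42 of the 112 list counts by over 1.5 times, whereas median centring moved 0. With the 2-fold limit left off, 47 pairs had calls in opposite directions in place of 5. Of the 450 named genes 438 were called, and 436 of these kept their call in every alternative in which they were run. The background filter left out 8 named genes at background in both groups, of which cldne and cd82a were called. Among genes not called, mpx was also called with median centring (adjusted p = 0.049), without probe sets at background (0.0474) and without control replicate 2 (0.0214), and agr1 and gfap with equal Bacillus controls (0.0416 and 0.0258). The exceptions among called genes were dldh with a trended, robust prior (adjusted p = 0.0815) and pou5f3 with equal Bacillus controls (-0.31, adjusted p = 0.0519). The cause was not tested. Of the 27 Bacillus control probe sets, 15 were above background in each group, so the Bacillus shift rests in part on probe sets at background. Which scaling is nearer to RNA per embryo cannot be told from these values. Genes at background have a bound in place of a level.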

Other observations

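Cldng, a claudin gene, had 4 probe sets and was singled out after its values were seen. The brightest read 12.38, 12.45 and 12.23 in the morphant-labelled arrays, against 10.02, 9.55 and 9.94 in the controls, a difference of 2.52 (adjusted p = 3.54e-07). The second read 7.27, 7.05 and 7.19 in the morphant-labelled arrays, against 9.52, 9.58 and 9.86 in the controls, a difference of -2.48 (adjusted p = 2.14e-07). The other probe sets differed by -1.87 and -1.79, with the groups apart in all 4. The probes' sequences were not analysed here, so no direction is given for cldng. It was the only gene besides kif23 whose probe sets were called at least 2-fold both ways. Of 345 genes with several probe sets and any such call, 150 had every probe set called at least 2-fold in the same direction.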
